A study of Mus musculus with 4 samples.

Results

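The AP-1 and Egr immediate early factors were followed in 4TO7, a carcinoma line of the mouse mammary gland, in cells recovered from tumors grown in Balb/c mice. The set holds 10 genes of the 55385 in the expression table, chosen by symbol: the Fos family (Fos, Fosb, Fosl1, Fosl2), the Jun family (Jun, Junb, Jund), Atf3, Egr1 and Egr2. Bulk RNA was sequenced from 2 libraries of cells out of resistant tumors, the therapy being anti-PD-L1, an antibody that blocks a checkpoint ligand, and from 2 libraries of cells from control tumors. The treatment protocol of all 4 samples, controls included, names anti-PD-L1 given in vivo, whereas their treatment label reads untreated, so the treatment of the control tumors remains unclear. No sample carries a genotype label beyond the strain, and the labels do not tie the 2 libraries of either group to different mice. The p-values therefore reflect library-to-library spread, which may be technical. Tumors had been digested with enzymes for 2 hours and the cells placed in culture medium before RNA was extracted.

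AP-1 is a dimer of bZIP proteins: a Fos protein pairs with a Jun protein, Jun proteins also pair with each other, and ATF proteins such as Atf3 can join them. The genes Fos, Fosb, Jun, Junb, Atf3, Egr1 and Egr2 are immediate early genes, which existing kinases and transcription factors switch on without new protein synthesis after growth factors, stress or wounding, and whose transcripts are short-lived. Fosl1 and Fosl2 respond later, Jund is expressed more constantly, and in mammary carcinoma Fosl1 (Fra-1) is known as the leading Fos protein of invasive, mesenchymal cells. Egr1 and Egr2 are zinc finger factors that bind GC-rich sites and are held in check by the corepressors Nab1 and Nab2. Enzymatic dissociation of tissue is itself known to induce immediate early genes, and all 4 libraries had gone through it.

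The libraries held 45666470 to 49592054 counted reads. Values are normalized counts, that is reads divided by a size factor per library, and log2 fold changes are resistant minus control on the log2(normalized count + 1) scale, ± SE. A gene was called when its adjusted p in limma was under 0.05 over all 14238 tested genes. Leukocyte markers summed to 3.06 and 3.22 normalized counts in the resistant libraries and to 2.88 and 2.02 in the control libraries, and the erythroid markers Hba-a1 and Hbb-bs were at 0 reads in all 4. Of the macrophage markers, Adgre1 was at 0 reads in both resistant libraries and had 1 read over the control libraries, and Cd68, which other cell types express too, was the only one tested. It rose (log2 fold change 1.18, adjusted p = 0.0356) and made up nearly all of the macrophage sums of 10577 and 9987 in the resistant libraries, against 3233 and 6359 in the control libraries. The Cd68 call ended without resistant replicate 1 (adjusted p = 0.0764) or 2 (adjusted p = 0.0598) and with no filter on low values (adjusted p = 0.167), and its value was 0.69 and 1.67 without control replicate 1 or 2. Its part in the results was not tested. Of 6 carcinoma line markers Krt7 rose (1.90) and Epcam fell (-1.53), while Krt8, Krt18, Cdh1 and Vim were detected in every library and did not pass. The Krt7 call ended without resistant replicate 2 (1.61, adjusted p = 0.148), that of Epcam without resistant replicate 1 (-1.34, adjusted p = 0.0723), and both with no filter (adjusted p = 0.0835 for Krt7 and 0.0715 for Epcam). Of the fibroblast and mural markers 4 were tested, of which Pdgfrb rose (1.00) and Dcn fell (-1.99), and single tested neutrophil and endothelial markers (S100a8 and Pecam1) did not pass. The Dcn call held in all 4 fits with a library left out and with no filter, whereas that of Pdgfrb ended without resistant replicate 1 (1.19, adjusted p = 0.0799) or 2 (0.81, adjusted p = 0.288) and with no filter (adjusted p = 0.102).

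Among the 10 genes Egr1 fell and Atf3 rose in resistant cells, and the other 8 were not called. All 10 passed the filter on low values (average 10 normalized counts or more). Of all tested genes 4.73% were called lower, 5.32% higher and 10.1% in either direction, so 1 of 10 in each direction is near the background. The median log2 fold change was -0.19 over the 7 immediate early members and 0.03 over the 3 stable members (Fosl1, Fosl2 and Jund), against 0.0023 over all tested genes. The 7 spread from -2.56 to 0.83 and the 3 from -0.08 to 0.36. The median within each library varied with an SD of 0.17 between libraries of a group for the 7 and 0.10 for the 3. The called immediate early members thus moved in opposite directions, and the difference between the classes was not tested.

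**Figure D1:**
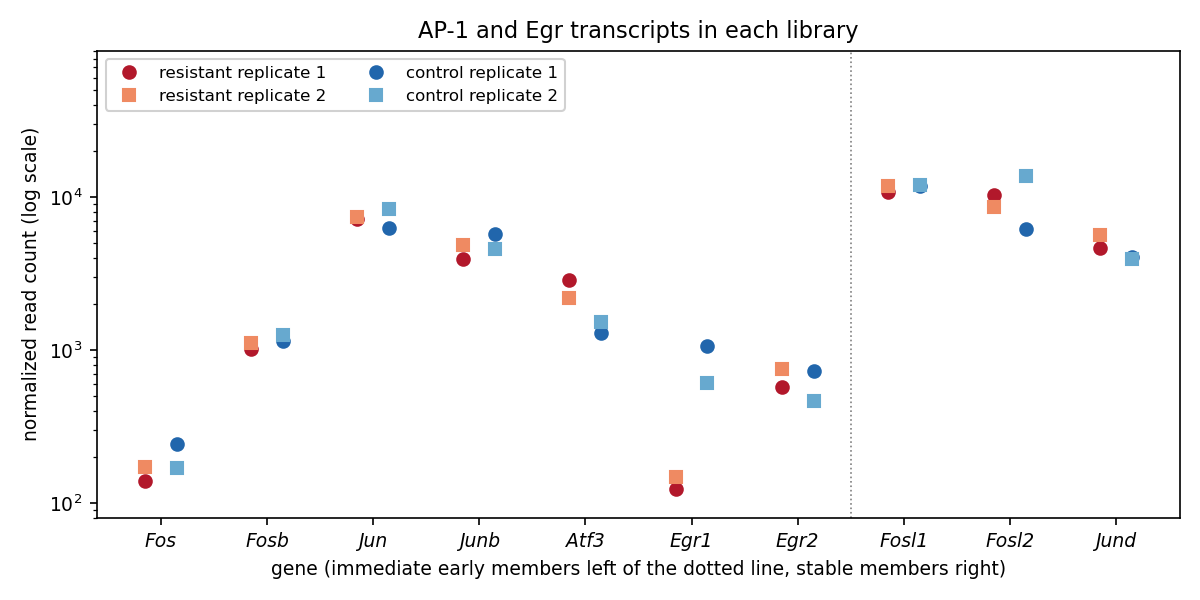
Normalized read count (log scale) of the 10 genes in each library, with red and orange points for resistant and blue points for control libraries, and circles and squares for replicates 1 and 2. For Egr1 both resistant libraries (124 and 147) lie far below both control libraries (1067 and 606), for Atf3 they lie above, and for Fosl2 the 2 control libraries lie on either side of the resistant ones.

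Promoter sequence is shown for Atf3, the immediate early member that rose, beside Fos and Egr2, immediate early members that were not called. Each stretch is the 250 bases before a RefSeq start (GRCm38.p6), written 5′ to 3′ on the gene's strand, from chr1:191183334-191183583 (minus strand) for Atf3, chr12:85473640-85473889 (plus strand) for Fos and chr10:67537619-67537868 (plus strand) for Egr2. Capitals mark TGACGT, the core of the cAMP response element that CREB and ATF proteins bind, on either strand (ACGTCA on the other), and in Egr2 also a CArG box, the site of serum response factor.
Atf3: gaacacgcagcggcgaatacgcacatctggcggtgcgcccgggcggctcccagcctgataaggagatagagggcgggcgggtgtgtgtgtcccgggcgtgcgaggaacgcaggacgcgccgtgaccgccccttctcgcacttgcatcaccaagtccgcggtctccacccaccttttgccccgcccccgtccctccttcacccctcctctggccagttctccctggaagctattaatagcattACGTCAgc
Fos: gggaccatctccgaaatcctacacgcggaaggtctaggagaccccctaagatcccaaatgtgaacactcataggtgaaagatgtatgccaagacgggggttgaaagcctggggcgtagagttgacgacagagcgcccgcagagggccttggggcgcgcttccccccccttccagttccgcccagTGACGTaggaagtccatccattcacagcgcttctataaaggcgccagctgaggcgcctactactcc
Egr2: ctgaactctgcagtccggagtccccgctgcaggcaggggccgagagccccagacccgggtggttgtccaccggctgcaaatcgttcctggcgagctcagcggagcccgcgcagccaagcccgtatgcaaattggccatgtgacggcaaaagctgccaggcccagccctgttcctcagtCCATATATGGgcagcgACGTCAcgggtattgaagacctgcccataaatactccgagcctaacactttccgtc

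The core began 8 bases upstream of the start in Atf3, 66 in Fos and 56 in Egr2, and the CArG box of Egr2 began 72 bases upstream and did not overlap it. The Atf3 start used here lies inside the annotated gene (191170296 to 191218039, minus strand), whose upstream end has no window. Counts per gene do not tell which start the rise of Atf3 came from. Egr2 has 5 RefSeq windows, of which 3 held the core and 4 the CArG box. RefSeq windows of 300 bases (250 before and 50 after the start) were found for 8 of the 10 genes, all but Fosl1 and Egr1. The RefSeq start of 9 of these 12 windows lay within 50 bases of a GENCODE transcript start. The others were the only windows of Jund (1210 bases away) and Fosl2 (299) and a window of Egr2 (303). The Jund and Fosl2 windows may therefore miss the promoters in use, and a motif absent from them is not shown to be absent there. Among all 32817 such windows of the mouse genome 7.51% held TGACGT, 1.63% a CArG box, 7.81% the AP-1 site TGANTCA and 5.56% the Egr-type site GCGNGGGCG, each searched on both strands. No window of these 8 genes held TGANTCA, and GCGNGGGCG was found in those of Fosb and Fosl2. TGACGT was found for 3 of these 8 genes, Atf3, which rose, and Fos and Egr2, which were not called, and in no window of Jun, Junb, Jund, Fosb or Fosl2.

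Egr1 had 124 and 147 normalized counts in the resistant libraries, against 1067 and 606 in the control libraries. Both resistant libraries lay far below both controls, and the smallest ratio of a control to a resistant library was 4.12. These levels rest on 122 and 137 reads in the resistant libraries and 1111 and 601 in the control libraries. Egr1 (ENSMUSG00000038418.7, chromosome 18, 34859823 to 34864984, GRCm38) averaged 135.6 ± 15.99 normalized counts in the resistant group and 837 ± 326 in the control group (SD, n = 2 each), a log2 fold change of -2.56 ± 0.27 (limma, adjusted p = 0.00185). Expressed as a fold, control cells held 5.91 times the resistant level (95% interval 3.81 to 9.18). With 1 library left out at a time the log2 fold change stayed between -2.97 and -2.16 and the call held in all 4 fits. The 119 tested genes within 5 Mb on either side of Egr1 had a median log2 fold change of -0.00049, with 6 called higher and 9 lower. In bulk RNA a loss in every cell and a loss of Egr1-expressing cells cannot be told apart.

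The closest relative of Egr1 did not follow it. Egr2 had 571 and 748 normalized counts in the resistant libraries, against 725 and 462 in the control libraries. The groups overlapped, and the log2 fold change of 0.17 ± 0.24 did not pass (limma, adjusted p = 0.695; 95% interval -0.38 to 0.73). Egr3, a further member of the family and not among the 10, had 160 and 236 normalized counts in the resistant libraries, against 232 and 172 in the control libraries (-0.04 ± 0.26), and Egr4 had no read in any library. Per kb of exon, Egr1 made up 12.0% and 10.7% of the summed Egr family level in the resistant libraries, against 47.2% and 43.6% in the control libraries. The share of Egr2 was 72.4% and 71.8% in the resistant libraries, against 42.3% and 43.8% in the control libraries. The length used is that of all annotated exons of a gene merged, so shares between genes depend on the annotation. By this measure Egr transcripts were mainly Egr2 in resistant cells and about even between Egr1 and Egr2 in control cells. The intervals of the log2 fold changes of Egr1 (-3.20 to -1.93) and Egr2 did not overlap, though the difference between these genes was not tested.

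Atf3, a stress-induced factor that can repress or activate with its AP-1 partners, went the other way. Its normalized counts were 2868 and 2189 in the resistant libraries, against 1297 and 1533 in the control libraries. Both resistant libraries lay above both controls, by a factor of at least 1.43 in every pairing. Atf3 (ENSMUSG00000026628.13, chromosome 1, 191170296 to 191218039) averaged 2528 ± 480 in resistant and 1415 ± 167 in control cells, a log2 fold change of 0.83 ± 0.16 or 1.78-fold (95% interval 1.37 to 2.30; limma, adjusted p = 0.0209). The call ended without resistant replicate 1, where the log2 fold change was 0.63 (adjusted p = 0.177, with a range over the 4 left-out fits of 1.52e-10 to 0.177). Testing all genes with a read, low ones included, also ended it (adjusted p = 0.108). The 47 tested neighbours within 5 Mb had a median of -0.10.

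**Figure D2:**
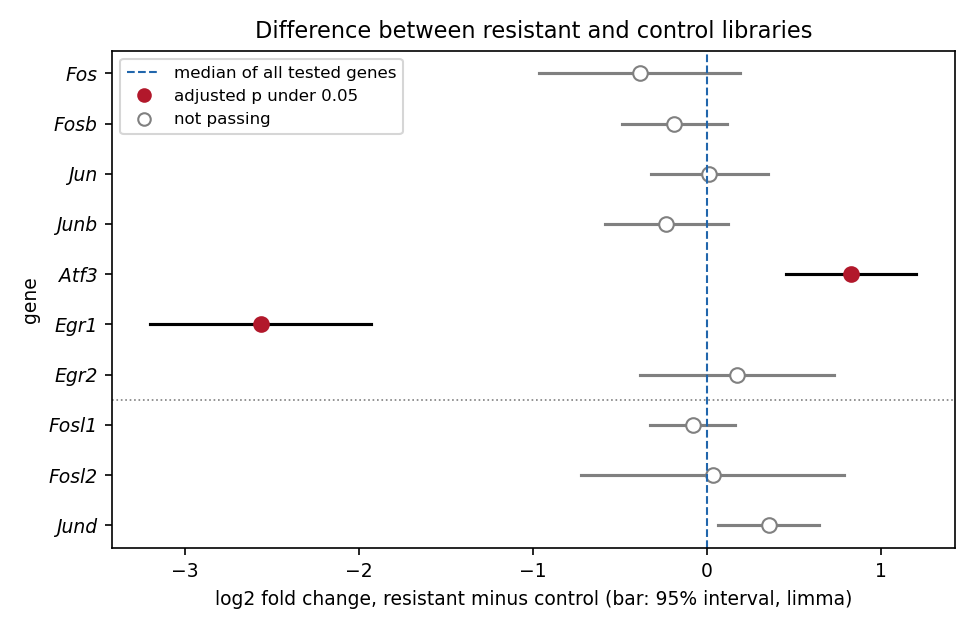
Log2 fold change (resistant minus control) of each gene with its 95% interval from limma; filled points passed an adjusted p of 0.05, and the dashed line is the median of all tested genes. Egr1 lies at -2.56 and Atf3 at 0.83, while the intervals of the others, apart from that of Jund (0.06 to 0.65), include 0.

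Of the Fos family no gene was called. Fos itself, the prototype of the immediate early genes, was the scarcest: 140 and 172 normalized counts in the resistant libraries, against 244 and 168 in the control libraries. The groups overlapped, and the log2 fold change was -0.39 ± 0.25 (adjusted p = 0.369). Fosb, its immediate early relative, had 1010 and 1103 normalized counts in the resistant libraries, against 1149 and 1258 in the control libraries. The resistant libraries lay just below the controls (-0.19 ± 0.13, adjusted p = 0.402). Fosl1, which encodes Fra-1, had 10690 and 11713 normalized counts in the resistant libraries, against 11745 and 11941 in the control libraries. It differed little (log2 fold change -0.08 ± 0.10, adjusted p = 0.671), with a 95% interval of -0.33 to 0.16.

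Fosl2, which encodes Fra-2, was the member with the widest spread. It had 10252 and 8611 normalized counts in the resistant libraries, against 6121 and 13769 in the control libraries. The control libraries lay on either side of the resistant ones and differed from each other 2.25-fold, and the log2 fold change was 0.03 ± 0.32 (adjusted p = 0.963). Without control replicate 1 it was -0.55, and without control replicate 2 it was 0.62, so the choice of a single control library would give opposite directions.

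The Jun family was not called either. Jun had 7170 and 7373 normalized counts in the resistant libraries, against 6249 and 8307 in the control libraries. The resistant libraries fell between the controls, with a log2 fold change of 0.01 ± 0.14 (adjusted p = 0.968). Junb, which can oppose Jun at shared targets, had 3914 and 4817 normalized counts in the resistant libraries, against 5730 and 4547 in the control libraries. These groups overlapped as well (-0.23 ± 0.15, adjusted p = 0.378). Jund had 4599 and 5615 normalized counts in the resistant libraries, against 4042 and 3902 in the control libraries. Both resistant libraries lay above both controls, but the log2 fold change of 0.36 ± 0.12 did not pass (limma, adjusted p = 0.12). Groups that do not overlap were found for 5 of the 10 genes (Egr1, Atf3, Jund, Fosb and Fosl1) and for 56.7% of all tested genes.

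Leaving out a control library moved several of these values, that of Jund little. Without control replicate 1 the log2 fold change was 0.50 for Egr2, 0.38 for Jund, -0.55 for Fosl2, -0.12 for Fos and -0.07 for Junb. Without control replicate 2 it was -0.15 for Egr2, 0.33 for Jund, 0.62 for Fosl2, -0.65 for Fos and -0.40 for Junb. In these fits the spread comes from the resistant pair alone, which varied less than the control pair (SD of the log2 difference 0.31 and 0.45). Far more of all tested genes were called in them, so calls of these genes are not given. Exons of 4 members overlap another gene on the opposite strand, and the strand setting of the counting step is unknown here. Fosl1 shares 1163 of its 2033 exon bases with Ccdc85b, Jund 877 with Gm11175, Jun 232 with Junos and Junb 173 with Prdx2, so reads of these pairs may be mixed.

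**Figure D3:**
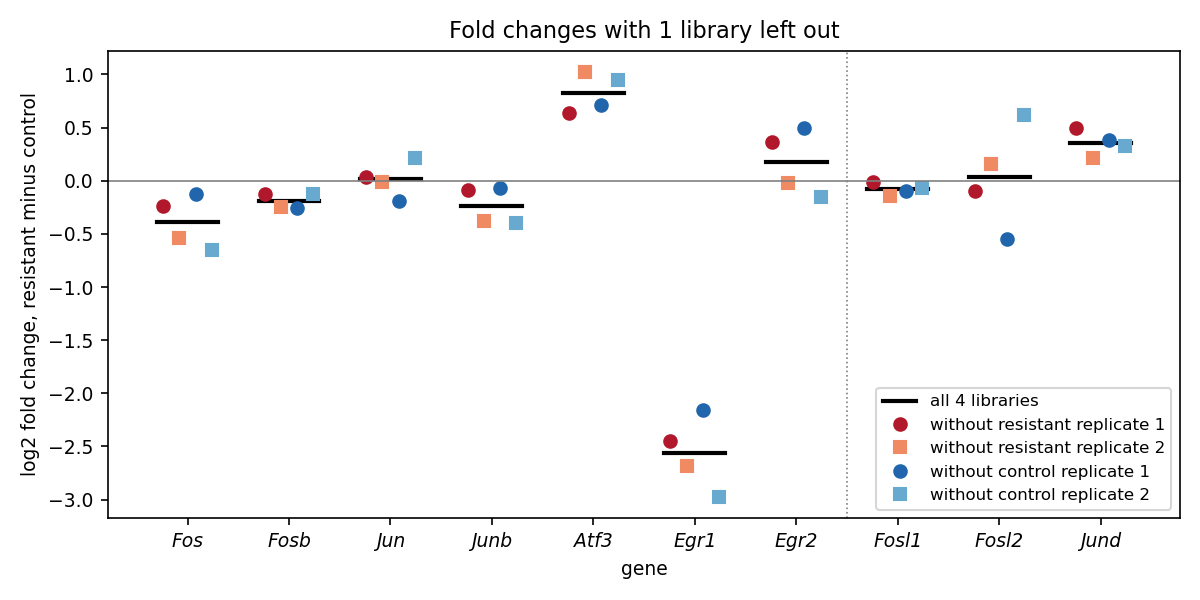
Log2 fold change (resistant minus control) of each gene with all 4 libraries (black bar) and with 1 library left out (points). Egr1 stays between -2.97 and -2.16, whereas Fosl2 runs from -0.55 without control replicate 1 to 0.62 without control replicate 2.

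Levels per kb of exon gave the order of the genes within a library. This order depends on the annotated exon length, and the levels of Fosl1, Jund, Jun and Junb may include reads of the genes that overlap them. In resistant cells Fosl1 was the most abundant at 5510 ± 356 normalized counts per kb, followed by Jund (3062 ± 431), Jun (2280 ± 45.0), Junb (1897 ± 277), Atf3 (1174 ± 223) and Fosl2 (974 ± 120). Egr2 (194 ± 36.8), Fosb (169 ± 10.5), Fos (66.2 ± 9.62) and Egr1 (30.2 ± 3.57) came last. The 2 libraries of Atf3 overlapped those of Fosl2, and those of Egr2 overlapped those of Fosb; the other neighbours in this order did not overlap. In control cells Fosl1 (5825 ± 68.4) led again. Jund (2381 ± 59.4), Jun (2282 ± 456) and Junb (2233 ± 364) overlapped each other, as did Fosl2 (1027 ± 559) with Atf3 (657 ± 77.5), and Fosb (193 ± 12.3) with Egr1 (187 ± 72.7) and Egr2 (175 ± 54.8). Fos (87.7 ± 22.7) was last. Egr1 thus stood below Fos in both resistant libraries and above it in both control libraries.

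With the same limits, most Fos family transcripts per kb belonged to the stable members in every library. Fosl1 took 80.4% and 83.5% of the summed Fos family level per kb in the resistant libraries, against 86.3% and 77.6% in the control libraries. Fosl2 took 16.2% and 12.9% in the resistant libraries, against 9.44% and 18.8% in the control libraries. Fosb and Fos made up the small remainder, with 0.908% and 1.06% for Fos in the resistant libraries, against 1.55% and 0.946% in the control libraries. The Jun family was spread more evenly. Jund took 41.1% and 43.3% in the resistant libraries, against 35.3% and 33.8% in the control libraries, and Junb took 25.4% and 26.9% in the resistant libraries, against 36.2% and 28.6% in the control libraries. The shares of Jund and Junb thus did not overlap between the groups, but shares of a common sum depend on each other. The counts of Junb overlapped, neither gene was called, and counts do not overlap between the groups for 56.7% of all tested genes. The differences in share were not tested.

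**Figure D4:**
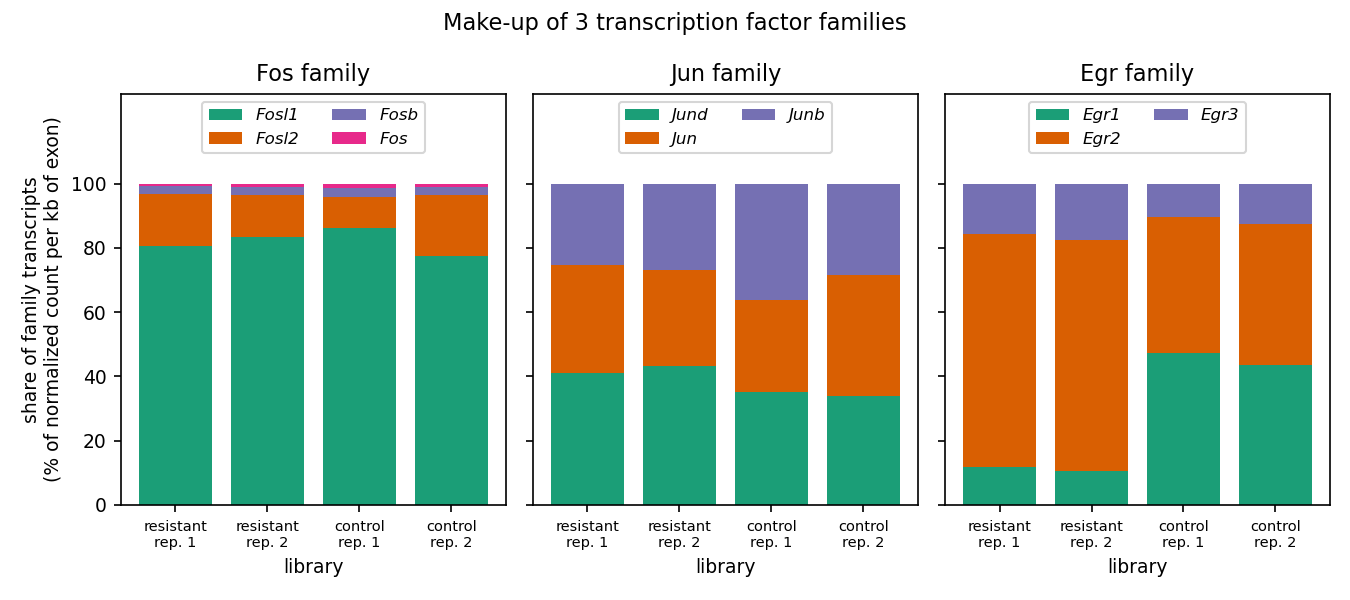
Share of each gene in its family's summed level (% of normalized counts per kb of exon) in each library. Fosl1 fills 77.6% to 86.3% of the Fos family in all libraries, while Egr1 falls to 12.0% and 10.7% of the Egr family in the resistant libraries, against 47.2% and 43.6% in the control libraries.

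Other immediate early genes gave little sign of a common shift. Of 31 tested genes of this list 3 fell and none rose in limma, against 4.73% and 5.32% of all tested genes, with a median log2 fold change of -0.0039. At an unadjusted p under 0.05, 3 were higher and 5 lower, and limma voom called 0 and 3. The kinase gene Sgk1 fell (-0.85 ± 0.11, adjusted p = 0.00525), with 6379 and 7359 normalized counts in the resistant libraries, against 12738 and 11983 in the control libraries. The other falls were those of the NF-kappaB regulator gene Nfkbiz (-0.81 ± 0.18, adjusted p = 0.0305) and of Zfp36 (-0.58 ± 0.13, adjusted p = 0.0353), whose protein destabilises AU-rich transcripts, immediate early ones included. The Sgk1 call ended without resistant replicate 1 (log2 fold change -0.75), those of Nfkbiz (-0.76 and -0.85) and Zfp36 (-0.46 and -0.71) without either resistant replicate 1 or 2. The Zfp36 call also ended with a replicate block (adjusted p = 0.0537) and with no filter on low values (adjusted p = 0.122), that of Nfkbiz with no filter (adjusted p = 0.141). With either control library left out more of this list was called in both directions, and so were more of all tested genes.

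Of the factors upstream of the 10 genes, none of 27 kinase and serum response factor genes passed in limma, with a median of -0.07, although 4 were higher and 3 lower at an unadjusted p under 0.05 while 1 was called lower by limma voom, by scaling to library totals and by centring on the median gene, and 1 higher with a pseudocount of 5 and with robust moderation. Elk3, a partner of serum response factor, had a log2 fold change of 0.03 ± 0.13. With either control library left out some of the 27 genes were called in each direction, while more of all tested genes were called too. Of 17 feedback inhibitors of ERK and JNK signalling 1 rose and none fell, near the 5.32% higher and 4.73% lower of all tested genes (median 0.10; at an unadjusted p under 0.05, 3 higher and 0 lower). It was the phosphatase gene Dusp2 (1.00 ± 0.25, adjusted p = 0.0456). Its call ended without resistant replicate 1 (1.12) or 2 (0.88), and without control replicate 2 the value was 0.60. It ended as well with no filter (adjusted p = 0.178) and with a minimum mean of 50 normalized counts (adjusted p = 0.0576). With either control library left out more inhibitors were called higher, and some were called lower without control replicate 2. More of all tested genes were called in these fits too.

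Among 10 genes for Egr corepressors and for factors that degrade or stabilise AP-1 proteins, 1 rose and none fell, against 5.32% higher and 4.73% lower of all tested genes, with a median of 0.01 (none lower at an unadjusted p under 0.05 or in limma voom). The ubiquitin ligase gene Ubr1 rose (0.62 ± 0.12, adjusted p = 0.0208), a call that ended without resistant replicate 1 (0.70) or 2 (0.53) and with no filter (adjusted p = 0.0841). The Egr corepressor genes Nab1 and Nab2 had log2 fold changes of 0.03 ± 0.11 and 0.01 ± 0.18 beside the fall of Egr1. Nab2, itself an Egr target, had 2234 and 2550 normalized counts in the resistant libraries, against 2830 and 1990 in the control libraries, so the groups overlapped.

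Of 18 tested genes for more distant bZIP relatives 2 were higher and 2 lower, against 5.32% and 4.73% of all tested genes, with a median of 0.01. Without resistant replicate 1 or 2 fewer of the list were called, and so were fewer of all tested genes. The large Maf protein gene Maf fell by 1.20 ± 0.14 on the log2 scale (adjusted p = 0.0033), to 339 and 361 normalized counts in the resistant libraries, against 801 and 815 in the control libraries. Bach1, a repressor of antioxidant genes, fell too (-0.41 ± 0.10, adjusted p = 0.048). Batf3, a Jun partner best known from dendritic cells, rose (1.18 ± 0.24, adjusted p = 0.0252), as did the CREB relative Creb5 (0.71 ± 0.11, adjusted p = 0.00988). The Maf call held in all 4 left-out fits; that of Creb5 ended without resistant replicate 2 (0.62), and those of Batf3 (1.11 and 1.25) and Bach1 (-0.38 and -0.44) without resistant replicate 1 or 2. With no filter the calls of Creb5 (adjusted p = 0.0603), Batf3 (adjusted p = 0.0997) and Bach1 (adjusted p = 0.123) ended. That of Bach1 also ended with a replicate block (adjusted p = 0.155) and with a minimum mean of 50 normalized counts (adjusted p = 0.0508).

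Of 26 tested genes known as AP-1 targets 7 rose and none fell, which is 26.9% higher against 5.32% of all tested genes, with a median of 0.15. The list was chosen with earlier results of these data known, so this share is a description and was not tested. At an unadjusted p under 0.05, 8 were higher and 1 lower, and limma voom called 6 and 0. The urokinase gene Plau (0.83 ± 0.13, adjusted p = 0.00872), the tissue factor gene F3 (0.97 ± 0.17, adjusted p = 0.0143) and the activin subunit gene Inhba (0.68 ± 0.13, adjusted p = 0.0182) had the smallest p. Plau had 8885 and 9236 normalized counts in the resistant libraries, against 4571 and 5659 in the control libraries. The EGF receptor ligand genes Areg (1.03) and Hbegf (0.44) and the protease gene Mmp9 (0.71) also rose and were named after their values were seen. The collagenase gene Mmp13 (0.43 ± 0.30) and the stromelysin gene Mmp3 (-0.40 ± 0.19), also AP-1 targets and likewise named after their values were seen, did not pass. With no filter on low values none of the list passed. Without resistant replicate 1 or 2 Plau was at 0.86 and 0.80, near its value with all 4 libraries. Most of the 7 calls ended in the first of these fits and all in the second, and fewer of all tested genes were called there too. Without control replicate 1 or 2 Plau was at 0.68 and 0.99. With either control library left out more of the list was called higher, and some of it lower without control replicate 2. More of all tested genes were called in these fits too, so this is no result about the list. F3 stood at 0.98 and 0.95 and Inhba at 0.72 and 0.64 without resistant replicate 1 or 2.

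**Figure D5:**
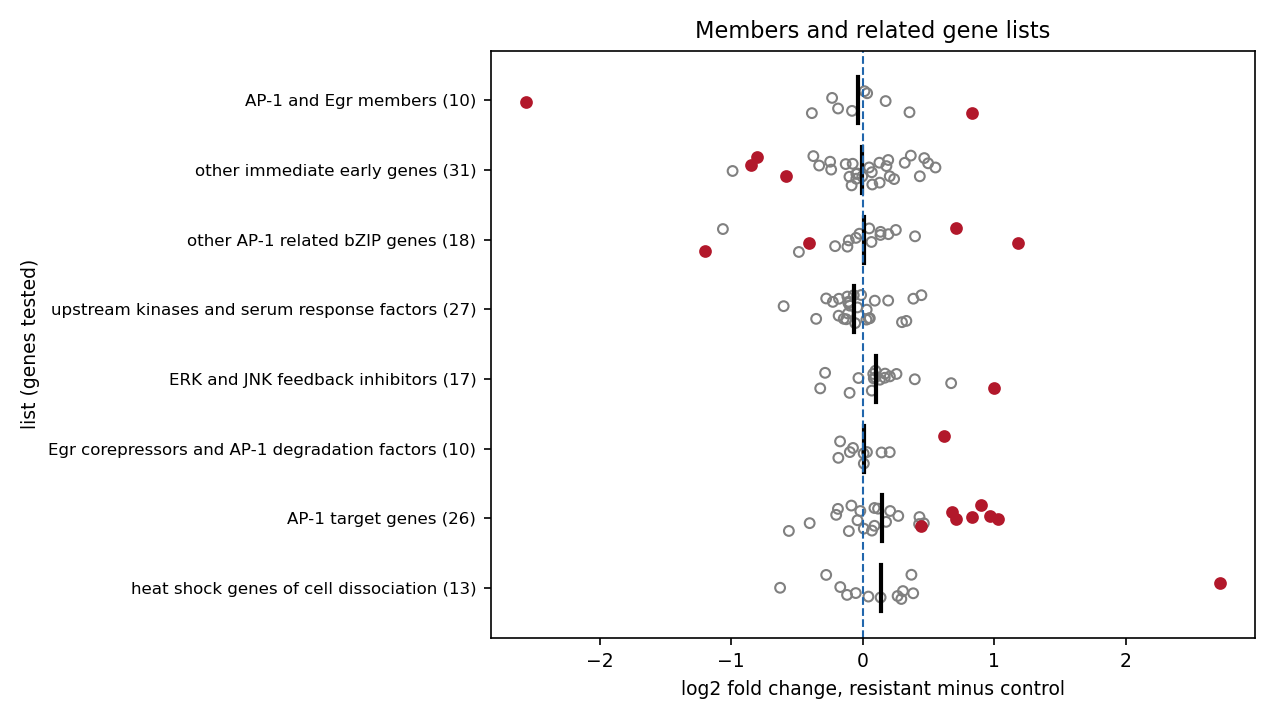
Log2 fold change (resistant minus control) of every tested gene of the 10-gene set and of 7 related lists; filled red points passed an adjusted p of 0.05, black bars are list medians and the dashed line is the median of all tested genes. The 26 AP-1 targets hold 7 called genes, all on the higher side, and the 27 upstream kinases and serum response factors hold none. Of all tested genes 5.32% were called higher and 4.73% lower. The lists were chosen with earlier results of these data known, and with no filter on low values none of the AP-1 targets passed.

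Heat shock genes, which tissue dissociation induces along with immediate early genes, were read beside these results. Of 13 tested, 1 rose and none fell, against 5.32% and 4.73% of all tested genes (median 0.14; at an unadjusted p under 0.05, 3 higher and 1 lower). It was the small heat shock protein gene Hspb1 (2.72 ± 0.25, adjusted p = 0.00107), with 167 and 188 normalized counts in the resistant libraries, against 25.9 and 26.2 in the control libraries. The strongly heat-inducible Hspa1b had -0.63 ± 0.21 and did not pass. Without control replicate 1 or 2, Hspb1 stayed at 2.71 and 2.73, while other genes of this list also passed, some of them lower. More of all tested genes passed in these fits too. The part of dissociation in the levels of the 10 genes was not tested.

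Likeness in pattern was measured as the Euclidean distance between log2 values centred on each gene's mean over the 4 libraries. The tested genes nearest to Fos were Ccdc149 (distance 0.013), Gatb (0.038), Kifc3 (0.038), Trmt12 (0.039) and Pgghg (0.042). Nearest to Fosl1 were Ctsz (0.012), Usp42 (0.016), Cpd (0.021), Dcaf12 (0.022) and Rap1gds1 (0.023). Egr1, for which the measure was added after its values were seen, had more distant neighbours, with Clca3a2 at 0.047, Cpsf4l at 0.14, Mpeg1 and Cmpk2 at 0.19 and P3h2 at 0.20. With 4 libraries many genes share a pattern by position alone, and these distances are a description.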

How the data were processed

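The authors deposited 1 table of log2 values per gene and library, for which the submitters' processing notes name STAR, DESeq2 and mm10; versions, counting mode and strand setting are not given in the sources used here. Each value is the log2 of a size-factor-scaled count plus 1: 100% of unlogged values in each library fell on whole multiples of 1 step (tolerance 0.01 reads), which gave the reads and totals. Columns were matched to samples by title and groups taken from the source labels. Symbols were joined on the identifier without version for 55144 of 55385 genes; coordinates and exon lengths are from GENCODE M21 (GRCm38, which is mm10). Promoters are from RefSeq (GRCm38.p6).

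The 14238 genes averaging 10 normalized counts or more entered a limma 3.58.1 fit in R 4.3.3 (trend, no block) on the deposited values, adjusted by Benjamini-Hochberg at 0.05. Fold changes on this scale understate changes of low genes. The fit was also run on simulated counts with the same spread in both groups. The 2 groups differ in spread here, so that run does not show the error rate for these data. The members and lists were chosen with earlier results of these data known. Named are all members, up to 4 called genes with the smallest p of each list (with none called, the 2 with the highest mean) and the 5 genes nearest to Fos and Fosl1; Egr3, Egr4, Nab1, Nab2, Hspa1b and the neighbours of Egr1 were added after their values were seen. Some genes that the rule names are not reported here. The classes immediate early and stable, and the lists, come from general knowledge. Alternatives were pseudocounts of 0.5 and 5, filters, scalings, limma voom on the recovered reads, robust moderation (statmod 1.5.0), a replicate block and each library left out.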

Additional observations from a re-analysis of the deposited data

How the results depend on the processing

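The fall of Egr1 passed under all 13 alternatives. The rise of Atf3 passed under all but 2, no filter on low values and leaving out resistant replicate 1, where 0 members were higher. With no filter, 126 genes rose and 185 fell. With 1 library left out, 146 to 2074 genes rose and 234 to 1993 fell, 0 to 3 members were higher and 1 to 3 lower, and the median of the stable members ran from -0.094 to 0.33; the cause was not tested, but fewer samples set the spread. Values near 0 changed sign. Jun was at -0.027 scaled to library totals or in limma voom, at -0.019 centred on the median gene, and between -0.19 and 0.22 with a library left out. Fosl2 was at -0.0068 under library totals, at -0.0076 in limma voom and between -0.55 and 0.62 with a library left out, and Egr2 between -0.15 and 0.50. Elk3 was at -0.010 under library totals and limma voom, at -0.0021 centred, and between -0.11 and 0.17 with a library left out.

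The differences between replicates 1 and 2 correlated at -0.36 across genes between the groups, so same-numbered libraries tended to vary in opposite directions. The replicate block pairs same-numbered libraries, so it cannot show the effect of a structure shared by libraries of different number. The source of this correlation was not tested. With the replicate block 628 genes rose and 585 fell, 1 member was higher and 1 lower, and both member calls held. Of 19 calls of named list and marker genes, 15 ended with no filter, 13 without resistant replicate 1, 14 without resistant replicate 2, 2 with a minimum mean of 50 normalized counts (Bach1 and Dusp2) and 2 with the replicate block (Bach1 at adjusted p = 0.155 and Zfp36 at 0.0537); none ended under the other alternatives. Scaling to library totals moved the median gene to -0.04, with 657 genes higher and 799 lower. Egr1 at 122 and 137 reads in the resistant libraries rests on the fewest reads of the 10 genes there. Counts of reads limit precision in counting error only, since PCR copies are not independent molecules.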
